A study of Callorhinchus milii with 12 samples.

Results

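Methylation outside CG dinucleotides was divided into its CHG and CHH contexts in 9 low-coverage whole-genome bisulfite sequencing libraries of the elephant shark Callorhinchus milii, a cartilaginous fish. These are the low-coverage libraries with at least 10000 reads analysed, 9 of the 12 libraries of the series. They come from 3 female livers (2, 3 and 4), 2 male livers (3 and 4), 2 pancreas samples and 2 spleen samples. Pancreas and spleen were each sampled from 1 female and 1 male. The paper gives adult age only for the animals of the deep-sequenced livers, and the labels give no age. All animals were taken by commercial fishing and were not treated, so tissue and sex are the only labelled differences. Of the other 3 libraries, male liver 2 has a report of 230 reads and was left out by the read minimum, and for the deep-sequenced livers the files used here hold CG calls only. Which animals gave the pancreas and spleen samples, and whether any of them also gave a liver, is stated neither in the labels nor in the paper, so the libraries may not be independent.

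In these contexts H stands for any base other than G. A CHG cytosine is followed by an H and then a G and, in its CAG and CTG forms, faces another CHG cytosine on the opposite strand, while a CHH cytosine has no such partner. In vertebrates the maintenance enzyme DNMT1 copies methylation at CG sites after replication, and the de novo enzymes of the DNMT3 family account for the smaller amounts found at non-CG cytosines, which are best known from mammalian neurons and embryonic stem cells. Flowering plants, in contrast, have dedicated enzymes for each context, with CMT3 acting at CHG sites. In bisulfite sequencing an unmethylated cytosine that escapes conversion is also read as methylated. The study treats the non-CG level as the upper limit of this failure. The percentages below can contain either source in either context, and their parts were not told apart.

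Methylation was higher at CHG than at CHH cytosines in 9 of 9 libraries. The mean level was 0.810% ± 0.163 (SD, n = 9) at CHG and 0.666% ± 0.170 (SD, n = 9) at CHH. The mean within-library difference was 0.144 ± 0.0324 percentage points (SD, n = 9), and the mean ratio corresponded to CHG levels 1.23 times those at CHH. The levels of both contexts were higher in pancreas and spleen than in the 5 livers. The mean difference between the contexts was 0.151 points in liver, 0.142 points in pancreas and 0.130 points in spleen.

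The 9 libraries together held 606179 CHG and 1736022 CHH calls, and CHG calls numbered 42209 to 130668 per library. In female liver 2, 356 of 50531 CHG calls (0.705%) and 747 of 136098 CHH calls (0.549%) were methylated. In female liver 3 these were 302 of 42209 CHG calls (0.715%) and 608 of 117842 CHH calls (0.516%), which gave the widest difference of the 9 libraries, 0.200 points. In female liver 4, the deepest of the 5 liver libraries, 611 of 90536 CHG calls (0.675%) and 1349 of 257136 CHH calls (0.525%) were methylated. All 3 female livers thus lay within a narrow range in each context, with CHG above CHH.

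In male liver 3, 441 of 64587 CHG calls (0.683%) and 1062 of 182375 CHH calls (0.582%) were methylated, which gave the narrowest difference of the 9 libraries, 0.100 points. In male liver 4, 339 of 47529 CHG calls (0.713%) and 748 of 132590 CHH calls (0.564%) were methylated. Across all 5 livers CHG levels lay between 0.675% and 0.715% and CHH levels between 0.516% and 0.582%, so that the lowest CHG level of a liver was above the highest CHH level of any liver.

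In the female pancreas, 449 of 47793 CHG calls (0.939%) and 1078 of 139779 CHH calls (0.771%) were methylated. In the male pancreas the counts were 556 of 48274 (1.15%) and 1427 of 137832 (1.04%), the highest level of the 9 libraries in each context. The pancreas libraries were the shallowest of the 9 in reads, but their number of calls was similar to that of the smaller liver libraries.

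In the female spleen, 655 of 84052 CHG calls (0.779%) and 1704 of 251893 CHH calls (0.676%) were methylated. In the male spleen, the deepest of the 9 libraries in calls, the counts were 1212 of 130668 (0.928%) and 2932 of 380477 (0.771%). The female spleen was the lowest of the 4 pancreas and spleen libraries in both contexts and lay nearest to the livers.

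**Figure D1:**
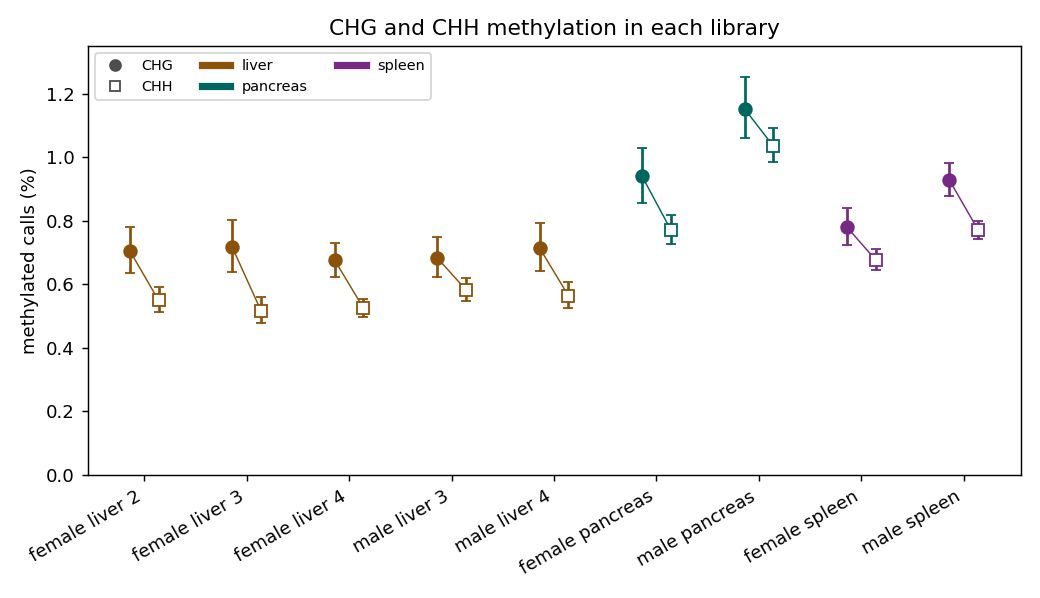
Percent of CHG calls (filled circles) and CHH calls (open squares) that were methylated in each of the 9 libraries, with 95% Wilson intervals that cover counting error only, coloured by tissue. The CHG value is above the CHH value in 9 of 9 libraries, and the male pancreas stands highest in both contexts with 1.15% and 1.04%.

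To compare the contexts, each library was used as its own control, since CHG and CHH calls come from the same reads. In an exact sign-flip permutation test (two-sided, 1 value per library) the mean difference of 0.144 points gave p = 0.00391, the smallest p that 9 libraries allow. The 95% interval by inversion of this test was 0.119 to 0.170 points. On the ratio scale the mean log2 ratio of CHG to CHH was 0.30, with an interval of 0.22 to 0.37, or 1.16-fold to 1.29-fold. Within the livers alone the difference was 0.151 points and within pancreas and spleen 0.136 points. It was positive in 5 of 5 and 4 of 4 libraries, where the exact permutation test gave p = 0.0625 and p = 0.125, the smallest values that groups of this size allow.

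The counts of single libraries were then examined by Fisher's exact test. CHG exceeded CHH in 9 of 9 libraries at a Benjamini-Hochberg adjusted p under 0.05. The male spleen, with the most calls, had an odds ratio of 1.21 (95% exact interval 1.13 to 1.29) and an adjusted p of 6.54e-07. The male pancreas had the weakest difference on this scale, with an odds ratio of 1.11 (1.01 to 1.23) and an adjusted p of 0.0326. Female liver 3 had the highest odds ratio, 1.39 (1.21 to 1.60), at an adjusted p of 1.44e-05. These tests take calls as independent, while each aligned read carried a mean of 18.9 to 24.6 non-CG calls. With the counts of each context divided by this number, 0 of 9 libraries passed, and none had an unadjusted p under 0.05. This divisor holds CHG and CHH calls together, so it is larger than the calls of either context on a read. Fisher's test also still took the CHG and CHH calls of a read as independent, so this is only a rough lower setting. The sign-flip test, which uses 1 value per library, does not take calls as independent.

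**Figure D2:**
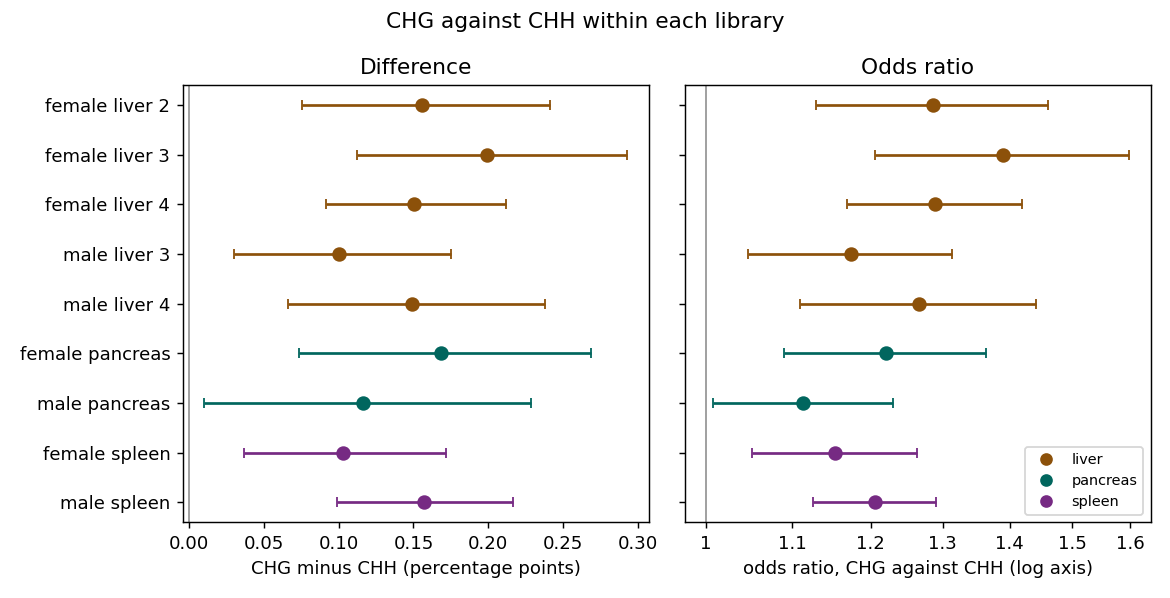
CHG minus CHH methylation in percentage points (left, 95% Newcombe intervals) and the odds ratio of CHG against CHH on a log axis (right, 95% exact intervals) in each library, coloured by tissue; intervals cover counting error only. Differences run from 0.100 points in male liver 3 to 0.200 points in female liver 3, and all 9 intervals lie above 0 on the left and above 1 on the right.

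The excess can also be given as calls. Had CHG cytosines been methylated at the CHH level of the same library, 475 methylated CHG calls would have been found in female liver 4 in place of 611, and 1007 in the male spleen in place of 1212. Over the 9 libraries the excess summed to 863 of 4921 methylated CHG calls. For scale, CG methylation in the same reports was 58.8 to 97.9 times the CHG level and 65.4 to 125 times the CHH level.

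The difference between contexts was then ordered by library. It was 0.100 points in male liver 3, 0.103 in the female spleen, 0.116 in the male pancreas, 0.149 in male liver 4, 0.150 in female liver 4, 0.156 in female liver 2, 0.157 in the male spleen, 0.168 in the female pancreas and 0.200 in female liver 3. No neighbours in this order differed beyond counting error, as the 95% interval of each such step included 0. This was also so for the extremes, male liver 3 and female liver 3, which differed by 0.0991 points (95% interval -0.0157 to 0.216). The SD between libraries of 0.0324 points was below the root mean square counting error of 0.0419 points. On the log2 ratio scale the SD of 0.097 was above the counting error of 0.080. Neither comparison was tested, and both counting errors take calls as independent. Tissues were interleaved in the order of the differences.

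The levels of each context were ordered by tissue. All 5 livers had lower CHG levels and lower CHH levels than all 4 pancreas and spleen libraries. At CHG the lowest of the latter, the female spleen, was above the highest liver, female liver 3, by 0.0638 points, a step within counting error (95% interval -0.0387 to 0.162). At CHH the female spleen was above the highest liver, male liver 3, by 0.0942 points, a step beyond counting error (0.0465 to 0.141). Within pancreas and spleen, the male pancreas exceeded the female pancreas by 0.212 points at CHG (95% interval 0.0837 to 0.341) and by 0.264 points at CHH (0.194 to 0.335). The female pancreas and the male spleen, by contrast, did not differ beyond counting error in either context. All these intervals take calls as independent, although many calls share a read, so they may be too narrow.

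Next, pancreas and spleen were compared with liver in each context. CHG methylation was 0.950% ± 0.153 (SD, n = 4) against 0.698% ± 0.0183 (SD, n = 5), a difference of 0.251 points (95% interval 0.111 to 0.418). CHH methylation was 0.813% ± 0.154 (SD, n = 4) against 0.547% ± 0.0274 (SD, n = 5), a difference of 0.266 points (0.150 to 0.453). An exact permutation test (two-sided) gave p = 0.00794 for each, the smallest that 4 against 5 libraries allow, and an adjusted p of 0.0159 over the 4 tests of this contrast. Like the other tests over libraries, it takes the libraries as independent. The animals that gave pancreas and spleen are not stated and may be shared, in which case these p-values would be too small. Tissue also cannot be told apart from the source folder described below. The relative increase was 1.36-fold at CHG and 1.49-fold at CHH. The spread among the pancreas and spleen libraries was wider than that among livers in both contexts. The former group joins different tissues, so its spread also holds the difference between pancreas and spleen and is not like that of the livers.

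The same contrast was not resolved for the difference between contexts. CHG exceeded CHH by 0.136 ± 0.0314 points in pancreas and spleen (SD, n = 4) and by 0.151 ± 0.0351 points in liver (SD, n = 5). The change of -0.0149 points had a 95% interval of -0.0702 to 0.0391 and p = 0.563 (two-sided exact permutation test, adjusted p = 0.563). The groups overlapped, and shifts of either direction lie within this interval.

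On the ratio scale the tissues lay further apart. The ratio of CHG to CHH was 1.17 to 1.39 in the livers, with a geometric mean of 1.28, and 1.11 to 1.22 in pancreas and spleen, with a geometric mean of 1.17. The difference in log2 ratio was -0.13 (95% interval -0.25 to -0.0058), with p = 0.0397 (exact permutation test, two-sided) and an adjusted p of 0.0529, which does not pass the threshold of 0.05. The ranges overlapped in 1 liver, male liver 3, whose ratio of 1.17 lay below those of the female pancreas and male spleen. Without this library the adjusted p was 0.0381 in the same exact permutation test.

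**Figure D3:**
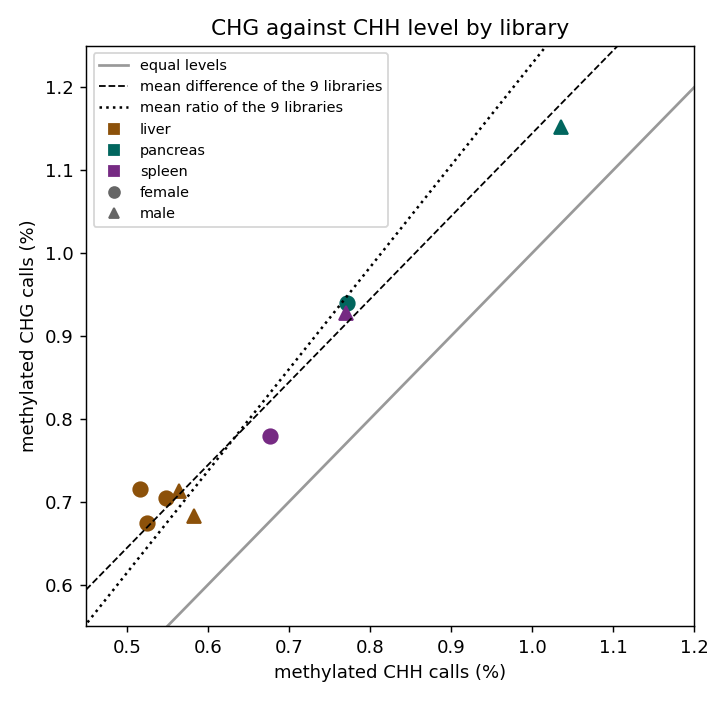
CHG level against CHH level, both in percent of calls methylated, with 1 point per library (circles female, triangles male, coloured by tissue), the line of equal levels, the line of the mean difference of 0.144 points and the line of the mean ratio of 1.23. All 9 points lie above the line of equal levels, and the male pancreas, with the highest levels, lies below both other lines.

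The points of the livers lay close together, low in both contexts. Those of pancreas and spleen were more spread out, with the female spleen nearest to the livers. No correlation across libraries was computed, as the groups hold only 5 and 4 libraries. Within livers the order of the 2 contexts was not shared. Female liver 3 had the highest CHG and the lowest CHH level of the 5, and male liver 3 the second lowest CHG and the highest CHH level. No neighbouring livers differed beyond counting error in either context. The highest and lowest livers of each context were not compared in this way, so differences between them are not excluded.

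Taken singly, the pancreas libraries had means of 1.05% ± 0.150 at CHG and 0.903% ± 0.187 at CHH (SD, n = 2), and the spleen libraries 0.853% ± 0.105 and 0.724% ± 0.0666 (SD, n = 2). The pancreas exceeded the liver by 0.347 points at CHG and 0.356 points at CHH, and the spleen exceeded it by 0.155 and 0.176 points. With 2 libraries per tissue these values rest on single libraries, and without the male pancreas the CHH value of pancreas was 0.224 points, and without the male spleen the CHG value of spleen was 0.0811 points. Each of these 4 comparisons gave p = 0.0476 by exact permutation (two-sided), the smallest that 2 against 5 libraries allow, and an adjusted p of 0.0714 over 6 tests. The other 2 tests concerned the difference between contexts, which was -0.00866 points from the liver value in pancreas (exact permutation test, p = 0.810, adjusted p = 0.810) and -0.0211 points in spleen (exact permutation test, p = 0.619, adjusted p = 0.743). Both pancreas libraries lay above both spleen libraries at CHG and at CHH, but 2 against 2 libraries cannot give a p under 0.333 in this exact test.

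Other properties of the libraries moved with tissue. The share of reads that aligned was 24.2% to 27.3% for livers and 37.9% to 42.0% for the other tissues, and each aligned read carried 18.9 to 20.5 non-CG calls in the former and 23.2 to 24.6 in the latter. The report headers of the 5 livers also name a common source folder that is in none of the 4 pancreas and spleen headers. Tissue and source folder cannot be told apart, and the part of alignment and calls per read in the tissue differences was not tested. CG methylation, at 63.5% to 67.5% for livers and 63.9% to 67.8% for the other tissues, overlapped between the groups.

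The composition of the non-CG calls differed between tissues as well. CHG calls made up 26.0% to 27.1% of all non-CG calls in the livers but only 25.0% to 25.9% in the other tissues. The means were 26.4% ± 0.402 (SD, n = 5) and 25.5% ± 0.378 (SD, n = 4). The change was -0.905 points (95% interval -1.53 to -0.337, two-sided exact permutation test, unadjusted p = 0.00794). The same exact permutation test, also unadjusted, gave p = 0.167 for the CG share of calls and p = 0.00794 for non-CG calls per aligned read. Among the methylated non-CG calls the CHG share was higher in every library, at 29.3% to 33.2% for livers and 27.8% to 29.4% for the other tissues. This second share follows from the levels and the composition given above.

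**Figure D4:**
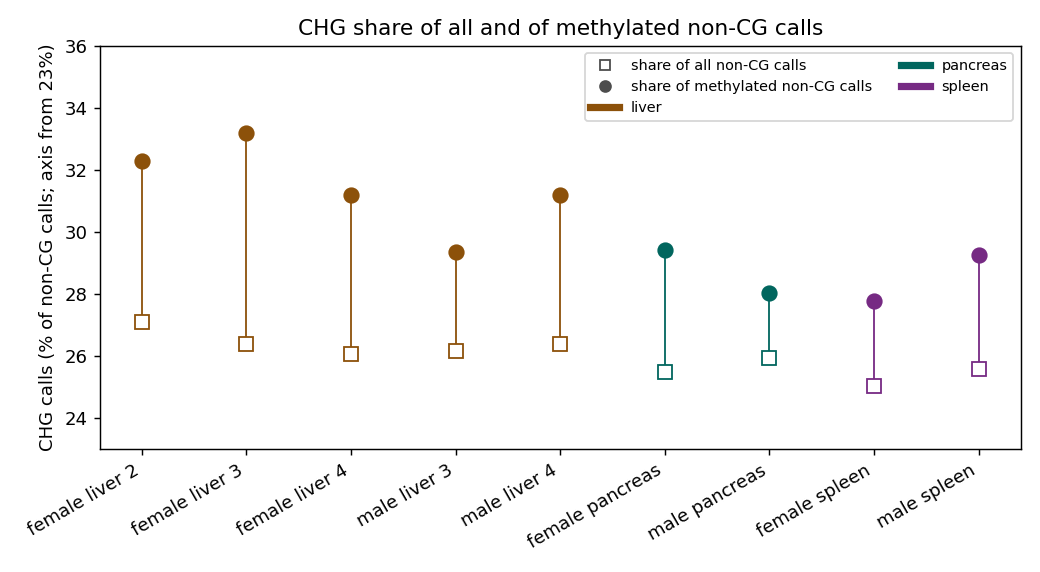
CHG calls as a percent of all non-CG calls (open squares) and of methylated non-CG calls (filled circles) in each library, coloured by tissue, on an axis that starts at 23%. The filled circle is above the square in 9 of 9 libraries, and the squares of the livers, 26.0% to 27.1%, lie above those of pancreas and spleen, 25.0% to 25.9%.

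Finally, the difference between contexts was compared between the sexes within tissues. CHG exceeded CHH by more in females than in males in liver (by 0.0437 points) and pancreas (0.0518 points), and by less in spleen (-0.0541 points). The mean of the 3 tissues was 0.0138 points, with p = 0.65 by an exact permutation test (two-sided) of the 40 arrangements of sex within tissue.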

How the data were processed

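The authors trimmed the reads with Trim Galore (0.4.0), removed 10 bp from the 5' end, and aligned them with Bismark (0.14.3) and Bowtie in the --pbat mode for post-bisulfite adaptor tagging libraries to the larger scaffolds of elephant shark assembly 6.1.3. The deposited mapping reports hold counts of reads and of methylated and unmethylated calls per context, without removal of duplicates. Percentages rounded by Bismark to 1 decimal stand in the same column, whose unit was therefore classed here as other. Levels were computed from the counts. The summed CHG and CHH counts of the reports are not the non-CG counts in the study's supplementary table, which are lower for the livers and higher for pancreas and spleen, while the CG counts are the same. The mismatch thus follows the tissue contrast, its cause is not given, and all values rest on the reports alone.

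Computations used Python 3.11.15, NumPy 2.4.6, SciPy 1.17.1 and Matplotlib 3.10.9. Contexts were compared by exact sign-flip tests over libraries and Fisher's exact tests within them, and tissues by exact permutation tests of means, with Benjamini-Hochberg adjustment and a threshold of 0.05. Intervals of single levels are 95% Wilson intervals, those of differences between counts are Newcombe intervals, and those of test results come from test inversion. Counting intervals take calls as independent. The sign-flip test and Fisher's exact test were checked on simulated counts of independent calls. The permutation test of means was checked only on a small made-up example. The libraries and tests were chosen with earlier results of these data known. No genes were measured, and every library is named. Alternatives were rounded percentages, other read minimums, ratios, pooled calls, counts reduced for calls on shared reads, livers or other tissues alone, and each library left out.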

Additional observations from a re-analysis of the deposited data

Results flagged for a closer look

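Female liver 2 stood apart from the other livers in the CG share of its calls, which was 11.2% against 10.5% to 10.7% in the other 4. Of 7 measures of the 5 livers examined in this way, 1 had such a library, where chance marks about 1 group in 20. The library's CHG share of non-CG calls, 27.1%, was also the highest, and its CHG and CHH levels of 0.705% and 0.549% lay inside the range of the other livers.

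For CHG minus CHH methylation, the female minus male value was 0.0518 percentage points in pancreas and -0.0541 points in spleen, so the sexes were ordered differently in these tissues. Each value compares 1 female with 1 male library, and whether the tissues differ was not tested.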

How the results depend on the processing

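CHG stayed above CHH on average under every alternative tried, by 0.137 to 0.150 points without each library in turn. The exact permutation p passed the threshold in each that was tested, except within the livers (0.151 points) and within pancreas and spleen (0.136 points), where it cannot. Per library, 7 of 9 Fisher calls were left with counts divided by 2 and 2 of 9 with counts divided by 4, settings chosen after the data were seen. With the counts of each context divided by the mean number of non-CG calls per aligned read, 0 of 9 were left.

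Including male liver 2 raised the mean of CHG minus CHH to 0.457 points and changed its tissue difference to -0.535 points. It turned the CHG difference between tissues to -0.408 points, lowered that at CHH to 0.128 points and changed that in CHG share to -0.316 points, none of them past the threshold. This library has 43 CHG calls. With at least 30000 reads, which removes both pancreas libraries, the tissue differences were 0.155 points at CHG and 0.176 points at CHH, where the adjusted p of 0.0952 (exact permutation test) comes from the smallest p that 2 spleen against 5 liver libraries allow. Leaving out each library in turn gave 0.184 to 0.308 points at CHG and 0.192 to 0.312 points at CHH. The adjusted p rose to 0.0571 (exact permutation test) without female liver 2, 3 or 4 or male liver 4, where each unadjusted p was the smallest that 4 against 4 libraries allow. The log2 ratio of CHG to CHH by tissue ranged from -0.16 to -0.095, and passed only without male liver 3, whose removal ended the overlap of the groups. The log odds ratio changed by -0.0869 (natural log) by tissue, which at these levels is the same quantity as the log2 ratio, with the same unadjusted p. It passed only because it took the place of the difference in the family of 4 tests, and adds no support.

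Of the differences not past the threshold, 3 changed sign when single libraries were left out. These were CHG minus CHH by sex, from -0.00522 (without either pancreas library) to 0.0477 points, the same measure in pancreas against liver, from -0.0346 to 0.0172 points, and in spleen against liver, from -0.0482 to 0.00593 points. With the replicate block, in which livers 3 and 4 were paired by number and the other tissues by sex, the sexes differed by 0.0245 points (p = 0.63 by an exact permutation test of the pairs). The numbers name different animals, and same-numbered livers deviated in opposite directions from the means of their sex. With only 2 male livers, the male deviations are equal and opposite by construction, so these directions cannot decide whether the livers are paired.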

Other observations

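In the 230-read report of male liver 2, 2 of 43 CHG calls and 2 of 145 CHH calls were methylated, or 4.65% (95% Wilson interval 1.28% to 15.5%) and 1.38% (0.379% to 4.89%). The difference between the contexts had an interval of -1.59 to 14.1 points and was not detectable at this depth (Fisher's exact test, p = 0.225).

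The summed non-CG level of a library depends on its share of CHG calls, which differed between tissues. With the CHG share of every library set to the mean of 26.0%, the non-CG level of pancreas and spleen exceeded that of liver by 0.262 points, against 0.261 points at each library's own share. The shares differed by -0.905 points between tissues and the contexts by a mean of 0.144 points, so this step could change the level only slightly. Only the division between CHG and CHH was set equal here, and the part of composition within each context was not tested.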
